A study of Mus musculus with 6 samples.

Results

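Dual-specificity phosphatases (DUSPs) and Sprouty proteins are brakes on ERK signalling, and 10 of their genes are described here: Dusp1, Dusp2, Dusp4, Dusp5, Dusp6, Dusp10, Spry1, Spry2, Spry4 and Spred1. They were taken by symbol, and all 10 were found among the 19832 genes of the deposited table. EO771, a cell line from a mouse mammary tumour, was given recombinant lipocalin-2 (LCN2) protein in 3 libraries, and 3 libraries of the same line served as controls. The labels give no dose, exposure time, age of culture or batch. They also do not say whether the replicates were separate cultures, so the error behind the p-values is that among samples and may be technical. The study concerns mast cells that make LCN2 and stemness of cancer cells, and this comparison asks how tumour cells differ once the protein is added.

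ERK is the last kinase of the RAS, RAF and MEK cascade, and it is switched on by phosphorylation of a threonine and a tyrosine. DUSPs remove both phosphates, some in the nucleus and some in the cytoplasm, and some act on the related kinases JNK and p38. Sprouty and Spred proteins act further up, between growth factor receptors and RAF. Many of these genes are switched on by ERK activity itself, so that the brake is made when the pathway is active. Only mRNA was measured here, and neither kinase phosphorylation nor phosphatase protein.

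The nuclear phosphatase transcripts Dusp1, Dusp2 and Dusp5 and the cytoplasmic Dusp6 were higher in LCN2-treated cells, while Dusp4, Dusp10, Spry1, Spry4 and Spred1 did not pass the test and Spry2 was listed at 0 in every library. Of the 9 members tested, 4 rose and 0 fell, where 11.8% of all 10309 tested genes rose and 9.73% fell. All 4 that rose were among the 6 DUSPs, and none of the 3 tested Sprouty and Spred genes was called. Whether the families differ was not tested. The median log2 fold change was 0.52 over the 6 DUSPs and 0.02 over the 3 Sprouty and Spred genes, beside 0.0008 over all tested genes. The test was limma across all genes on log2(FPKM + 1) after scaling between libraries, with Benjamini-Hochberg adjustment and a threshold of 0.05. The values were taken as FPKM, a unit that neither header nor label states. FPKM are scaled for transcript length and sequencing depth, and levels are set side by side between genes on that assumption. In such bulk RNA, more cells carrying a transcript and more RNA per cell cannot be told apart.

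**Figure D1:**
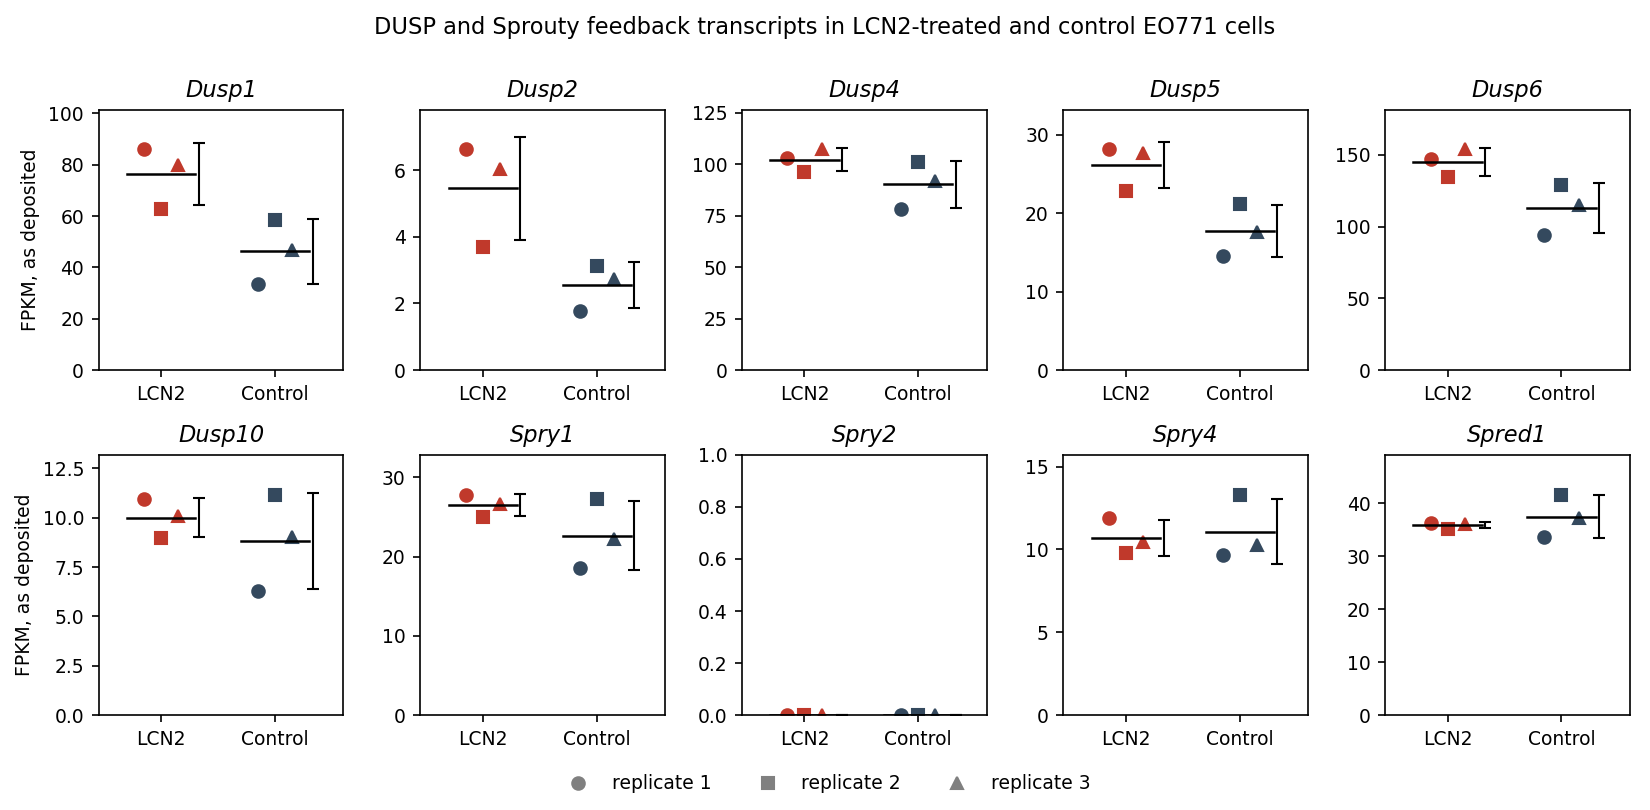
Deposited FPKM (vertical axis, from 0, a scale of its own for each gene) of the 10 transcripts in 3 LCN2 and 3 control libraries. Points are libraries with shapes for replicate numbers, horizontal lines are means and bars are ± SD. For Dusp1, Dusp2, Dusp5 and Dusp6 all LCN2 points lie above all control points, and Spry2 is at 0 throughout. After scaling, LCN2 lay above all controls in 23.0% of all tested genes.

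Dusp1 encodes a nuclear phosphatase of p38, JNK and ERK that is induced early by stress and growth factors (chromosome 17, 26505590 to 26562128, minus strand, GRCm38). It had 86.0, 62.9 and 80.1 FPKM in LCN2 replicates 1 to 3, against 33.5, 58.5 and 46.7 FPKM in control replicates 1 to 3. The groups did not overlap, but the lowest LCN2 library, replicate 2, came close to the highest control, replicate 2. After scaling, LCN2 lay above all controls in 5 of the 9 tested members and in 23.0% of all tested genes. The means were 76.3 ± 12.0 FPKM in LCN2-treated cells and 46.2 ± 12.5 FPKM in control cells (SD, n = 3 each). The log2 fold change was 0.80 (SE 0.19, 95% interval 0.36 to 1.23, limma adjusted p = 0.025). Exons of an annotated transcript of Dusp1 overlap those of Ergic1 on the other strand, and the treatment of strand is not given in the sources used here. Ergic1 itself had 59.5 ± 3.27 FPKM in LCN2-treated and 63.3 ± 1.37 FPKM in control cells (adjusted p = 0.69).

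Dusp2, a nuclear ERK phosphatase first known from activated lymphocytes, was the lowest of the detected members (chromosome 2, 127336159 to 127338376, plus strand). Its values were 6.62, 3.69 and 6.04 FPKM in the LCN2 libraries, against 1.78, 3.13 and 2.74 FPKM in the controls. Again no LCN2 library was as low as a control, and LCN2 replicate 2 was nearer the controls than its own group. Its log2 fold change of 0.90 was the highest of the 9 tested members (SE 0.21, interval 0.42 to 1.38, limma adjusted p = 0.025). The ratio of the group means was 2.13, larger than the fitted fold of 1.87, since adding 1 FPKM before taking logarithms understates the change of low transcripts.

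Dusp5 encodes a nuclear phosphatase that acts on ERK and not on JNK or p38 (chromosome 19, 53529109 to 53542431, plus strand). It had 28.1, 22.8 and 27.6 FPKM with LCN2, against 14.5, 21.2 and 17.6 FPKM in control libraries. The groups were apart, by the small gap between LCN2 replicate 2 and control replicate 2. The means were 26.2 ± 2.92 and 17.8 ± 3.33 FPKM in LCN2-treated and control cells, a log2 fold change of 0.61 (SE 0.12, limma adjusted p = 0.018), and this was the smallest adjusted p of the members. An annotated antisense gene, AC137853.2, shares exonic sequence with Dusp5 and was not analysed here.

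Dusp6, the cytoplasmic ERK phosphatase often read as a gauge of ERK output, was the most abundant member in both groups (chromosome 10, 99263231 to 99267489, plus strand). LCN2 libraries had 147, 134 and 154 FPKM and control libraries 94.4, 129 and 115 FPKM. The 3 LCN2 values all lay above the 3 control values, by the small gap between LCN2 replicate 2 and control replicate 2. The means of 145 ± 9.90 FPKM with LCN2 and 113 ± 17.5 FPKM in controls gave a log2 fold change of 0.43 (SE 0.10, interval 0.20 to 0.66, limma adjusted p = 0.024).

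These 4 calls rested on few libraries. Each library was left out in turn. None of the 4 was called once LCN2 replicate 1 was dropped (adjusted p between 0.075 and 0.094), nor with LCN2 replicate 3 dropped (0.072 to 0.092), nor with control replicate 3 dropped (0.061 to 0.071). When control replicate 1 was dropped, Dusp6 alone was called (limma adjusted p = 0.0496). All 4 stayed called when either library numbered 2 was dropped. The counts of all genes moved in the same fits: 1213 genes were higher over 6 libraries, 179 without LCN2 replicate 1 and 1659 without LCN2 replicate 2. Over all 16 other fits the log2 fold changes of the 4 remained above 0, between 0.32 and 1.12. With no filter on low values, Dusp1, Dusp2 and Dusp6 were not called (limma adjusted p = 0.056, 0.055 and 0.052). With the replicate number as a block, none of the 4 was called (limma adjusted p between 0.067 and 0.081).

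Dusp4, a nuclear phosphatase of ERK and JNK, did not pass the test. It had 103, 96.2 and 107 FPKM with LCN2, against 78.2, 101 and 91.8 FPKM in controls. As deposited, control replicate 2 was above LCN2 replicate 2, while after scaling the groups did not overlap, as was so with LCN2 above for 23.0% of all tested genes. The log2 fold change was 0.25 (95% interval 0.06 to 0.43, limma adjusted p = 0.065), and the call was made without LCN2 replicate 2 (adjusted p = 0.040) or without control replicate 2 (adjusted p = 0.048). Dropping any other library left Dusp4 uncalled (limma adjusted p between 0.12 and 0.19). Dusp10, which prefers JNK and p38 over ERK, had 10.9, 8.95 and 10.1 FPKM with LCN2, against 6.30, 11.2 and 9.03 FPKM in controls. Its groups overlapped, with the controls spread around the LCN2 values (log2 fold change 0.25, interval -0.13 to 0.62, limma adjusted p = 0.29).

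Spry1, an inhibitor of receptor tyrosine kinase signalling to RAS, had 27.8, 25.0 and 26.6 FPKM with LCN2, against 18.5, 27.3 and 22.2 FPKM in controls. The groups overlapped through control replicate 2 (log2 fold change 0.29, interval 0.04 to 0.55, limma adjusted p = 0.088), and without that library Spry1 was called (adjusted p = 0.029). Dropping any other library left Spry1 uncalled (limma adjusted p between 0.080 and 0.23). Exons of Spry1 overlap those of the antisense gene Gm42922, not analysed here.

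Spry4, which restrains RAS and RAF activation, had 11.9, 9.78 and 10.4 FPKM with LCN2, against 9.64, 13.3 and 10.3 FPKM in controls. Spred1, which brings the RAS inactivator neurofibromin to the membrane, had 36.3, 35.2 and 36.1 FPKM with LCN2, against 33.6, 41.6 and 37.1 FPKM in controls. In both genes the LCN2 values lay inside the range of the controls, and control replicate 2 was the highest library. Their log2 fold changes were 0.02 (interval -0.23 to 0.27) and 0.0055 (interval -0.14 to 0.15), and both turned below 0 with values as deposited (-0.04 for Spry4 and -0.06 for Spred1). Spry2, a further inhibitor of receptor signalling to RAS, was listed at 0 in all 6 libraries, as were 5744 genes of the table, and a value of 0 there can also be a failed estimate.

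**Figure D2:**
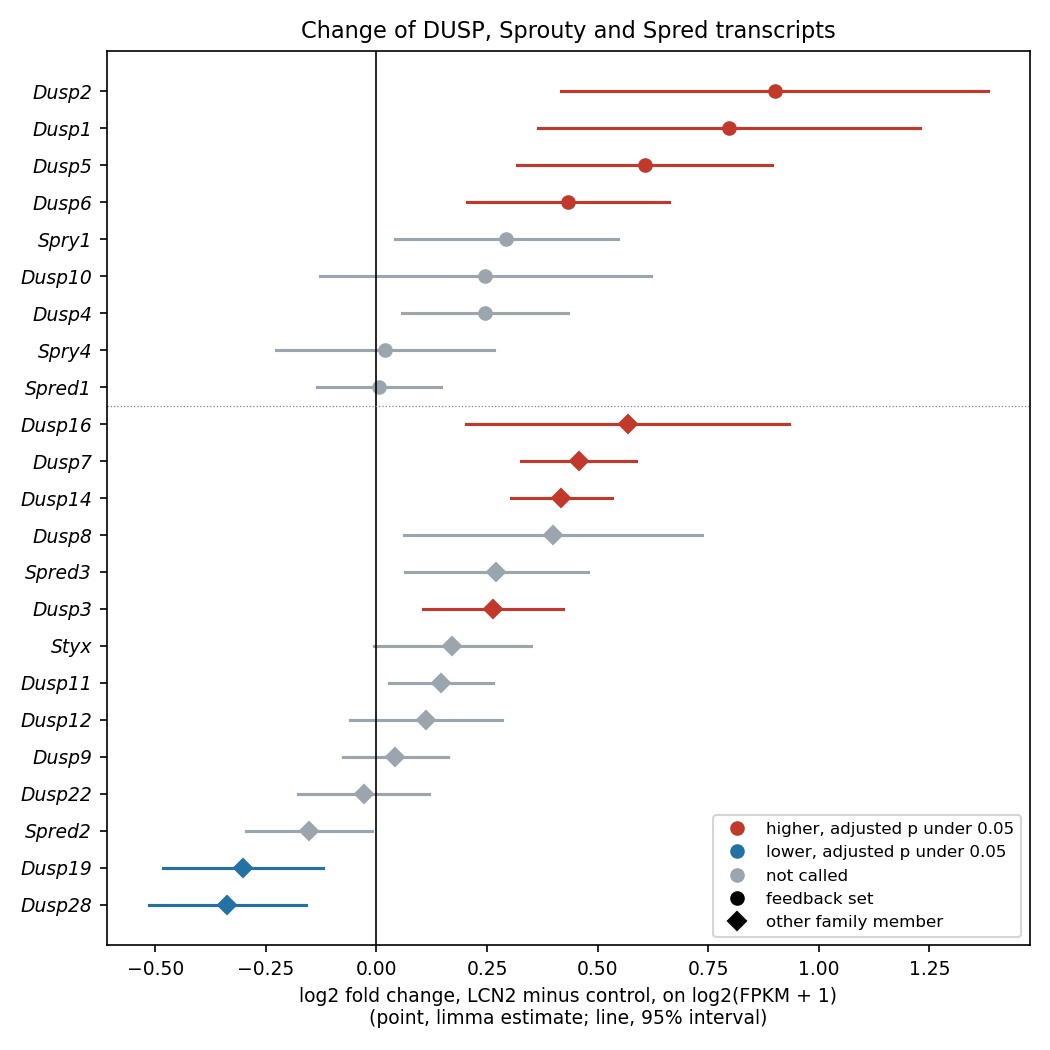
Log2 fold change (horizontal axis, LCN2 minus control on log2(FPKM + 1)) with its 95% interval for 9 tested members, as circles above the dotted line, and other tested family genes, as diamonds below it. Colours give the call; Dusp2, Dusp1, Dusp5 and Dusp6 lie highest among the members, from 0.90 to 0.43, and Spry4 and Spred1 lie at 0.

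By level, the order of the members in LCN2-treated cells was Dusp6, Dusp4, Dusp1, Spred1, Spry1, Dusp5, Spry4, Dusp10, Dusp2 and Spry2, and the order of the means was the same in control cells. The values of neighbours overlapped between Spry1 and Dusp5 and between Spry4 and Dusp10 in both groups. In control cells they also overlapped between Dusp6 and Dusp4 and between Dusp1 and Spred1, while in LCN2-treated cells these pairs were apart. Summed FPKM of the 6 DUSPs was 382, 329 and 385 in the LCN2 libraries, against 229, 324 and 283 in the controls. For Spry1, Spry4 and Spred1 together it was 76.0, 70.0 and 73.2 with LCN2, against 61.8, 82.2 and 69.6 in controls, where the control range enclosed the LCN2 values.

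The members also varied together among libraries of the same group. After scaling, LCN2 replicate 2 was the lowest LCN2 library, control replicate 1 the lowest control and control replicate 2 the highest control in all 9 tested members. Of all tested genes, 12.6% had that same arrangement. The arrangement was read off the members themselves, so the 2 shares are a description only. Among controls the highest library exceeded the lowest by 1.65-fold in Dusp1, 1.66-fold in Dusp2, 1.67-fold in Dusp10 and 1.17-fold in Spred1, where the median gene varied by 1.11-fold. Among LCN2 libraries the same ratio was 1.82 in Dusp2, 1.39 in Dusp1 and 1.04 in Spred1, beside a median of 1.12. Over the whole transcriptome LCN2 replicate 2 stood between the groups as well. It was at 4.34 on the first principal component (60.5% of the variance), and the other LCN2 libraries were at 15.7 and 16.5. Control replicate 1 was at -17.3, control replicate 3 at -11.1 and control replicate 2 at -8.09. The arrangement seen in the members was thus also that of the libraries on this component.

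**Figure D3:**
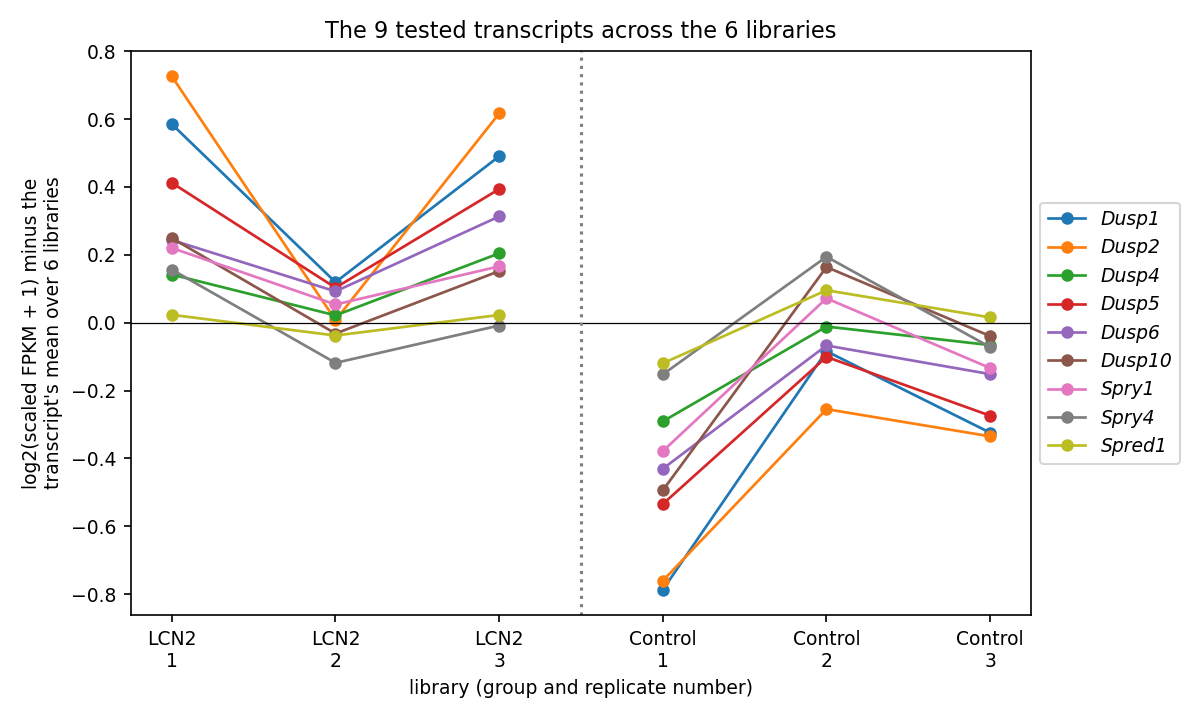
Scaled log2(FPKM + 1) of each of 9 transcripts, less its own mean over the 6 libraries (vertical axis), by library (horizontal axis). Lines join the points of 1 transcript within a group and stand for no order of the replicates; in every transcript LCN2 replicate 2 is the lowest LCN2 library and control replicate 2 the highest control.

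Across the 6 libraries, the gene of the pathway lists most like Dusp6 was Phlda1 (Pearson r = 0.995), followed by Hbegf (0.992) and Errfi1 (0.990). For Spry4 it was Mras (0.906), followed by Spred1 (0.833) and Dusp10 (0.782). Each was compared with 110 genes. These correlations rest on 6 points that share their libraries and their groups, so they describe the profiles only.

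The promoter windows of Dusp1, Dusp2 and Dusp5 are shown because motif letters were found in them and differ between them. Dusp6, which also rose, is not shown, and its window held none of the searched letters. RefSeq windows (GRCm38.p6) of 300 bases, from 250 before to 50 after the transcription start, were matched for 8 of the 10 members, without Dusp4 and Spry4. Both strands were searched for the cAMP response element (TGACGTCA) and its core (TGACG), and for AP-1 (TGANTCA), ETS (CCGGAAG), EGR (GCGNGGGCG), NF-kB (GGGAA, any 3 bases and CC), E-box (CACGTG) and GC box (GGGGCGGGG) letters. The CArG box, bound by serum response factor, was searched as CC, 6 bases of A or T, and GG. The stretches run from position -200 to position -51 before the start, 5′ to 3′ on the gene's own strand, with all matches in capitals. Dusp1 lies at chr17:26508523-26508672 (minus strand), Dusp2 at chr2:127335959-127336108 (plus strand) and Dusp5 at chr19:53528945-53529094 (plus strand), where an exon of AC137853.2 also reaches.
Dusp1: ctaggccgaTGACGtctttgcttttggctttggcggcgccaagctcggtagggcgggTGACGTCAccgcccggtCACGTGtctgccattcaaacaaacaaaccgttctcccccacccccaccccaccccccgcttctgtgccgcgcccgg
Dusp2: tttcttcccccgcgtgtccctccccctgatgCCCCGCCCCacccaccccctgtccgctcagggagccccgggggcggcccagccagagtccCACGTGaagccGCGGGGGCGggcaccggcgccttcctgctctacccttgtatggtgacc
Dusp5: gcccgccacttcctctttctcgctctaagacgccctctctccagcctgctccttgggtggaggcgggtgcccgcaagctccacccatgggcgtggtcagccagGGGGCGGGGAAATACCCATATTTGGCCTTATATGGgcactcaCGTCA

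Dusp1 holds a full cAMP response element at positions -143 to -136, letters found in 1.79% of all 32851 windows, a further core at -191 to -187 and an E-box at -126 to -121. Cores overlap the full element on both strands. Dusp2 holds a GC box at -169 to -161, an E-box at -109 to -104 and an EGR match at -98 to -90, with a cAMP response element core after the start, at 6 to 10. Dusp5 holds 2 CArG boxes side by side, at -82 to -73 and -72 to -63, joined by an NF-kB match at -91 to -82 and a GC box at -97 to -89 that overlap, and a cAMP response element core at -55 to -51. A CArG box was found in 1.63% of windows and 2 or more in 6 windows of 32851 (0.0183%). The count of 2 or more was made after the pair in Dusp5 was seen. No searched letters were found in the windows of Dusp6, Spry1, Spry2 or Spred1, and Dusp10 had a GC box only, after the start. Core matches of the cAMP response element were in 20.8% of all windows, E-boxes in 7.15%, GC boxes in 11.4%, EGR letters in 5.55% and NF-kB letters in 5.78%. AP-1 letters (7.81%) and ETS letters (8.86%) were in none of the 8. A match describes the letters and is no measure of binding.

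**Figure D4:**
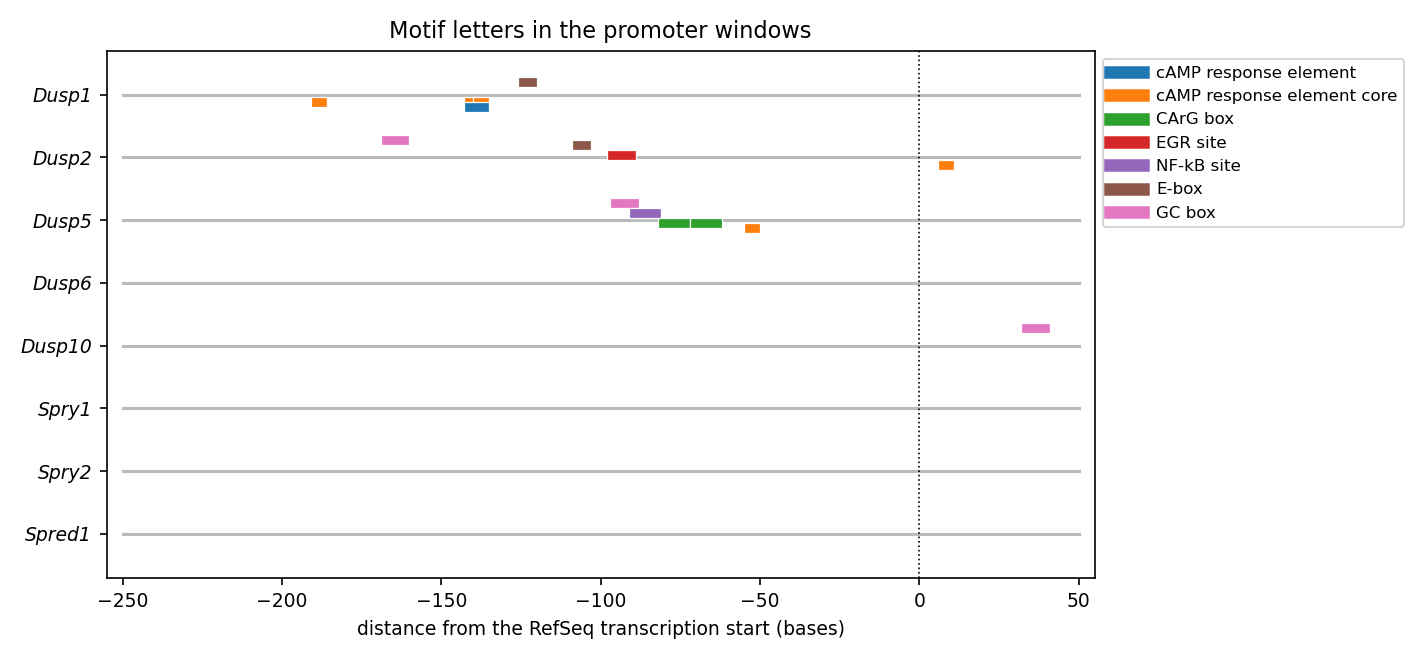
Matches of the searched motifs (coloured bars) in the promoter windows of 8 members, by distance in bases from the RefSeq transcription start (horizontal axis, dotted line at the start). Matches cluster upstream in Dusp1, Dusp2 and Dusp5, and the 2 CArG boxes of Dusp5 lie next to each other.

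Of 12 other tested DUSP and related genes, 4 rose (33.3%, beside 11.8% of all tested genes) and 2 fell (16.7%, beside 9.73%), with a median log2 fold change of 0.16. Dusp14, a small phosphatase outside the typical MAP kinase phosphatases, had 17.0, 17.9 and 17.2 FPKM with LCN2, against 13.1, 13.3 and 13.6 FPKM in controls (log2 fold change 0.42, limma adjusted p = 0.0053). Dusp7, the cytoplasmic ERK phosphatase closely related to Dusp6, had 18.5, 19.6 and 20.5 FPKM with LCN2, against 14.6, 14.5 and 14.5 FPKM in controls (0.46, adjusted p = 0.0056). In both the groups lay well apart, LCN2 replicate 2 was not the lowest LCN2 library, and the call held whichever of the 6 libraries was dropped. Dusp28 and Dusp19 fell, by 0.34 and 0.30 on the log2 scale (limma adjusted p = 0.024 and 0.033), with LCN2 means of 2.58 ± 0.252 and 4.78 ± 0.233 FPKM against control means of 3.68 ± 0.218 and 6.41 ± 0.592 FPKM. Each of these calls survived the omission of 1 library and was lost in the 5 other omissions. Exons of Dusp19 overlap those of Nup35 on the same strand. Dusp16 and Dusp3 also rose (0.57 and 0.26), and these 2 were picked out after their values were seen.

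Other inhibitors of the pathway were mostly of receptors and RAS, with Pea15a and the RAF inhibitor Pebp1 among them. Of 16 tested, 7 rose (43.8%, beside 11.8% of all tested genes) and 0 fell (beside 9.73%), with a median log2 fold change of 0.17. Lrig1, which lowers ERBB receptors at the cell surface, had 6.14, 5.82 and 6.59 FPKM with LCN2, against 3.13, 3.84 and 3.37 FPKM in controls (0.75, limma adjusted p = 0.0040). Pea15a, which holds ERK in the cytoplasm, had 132 ± 14.1 FPKM with LCN2 and 85.7 ± 6.58 FPKM in controls (0.67, adjusted p = 0.0056). Both stayed called whichever library was dropped. Errfi1, an inhibitor of the EGFR kinase, rose by 0.61 and the RAS-inactivating Rasal2 by 0.36 (limma adjusted p = 0.025 and 0.027), and each stayed called in 2 of the 6 omissions. Exons of Lrig1 and Pea15a overlap those of the antisense genes Slc25a26 and Dcaf8.

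Transcripts known to respond to ERK rose in 12 of 17 tested genes (70.6%, beside 11.8% of all tested genes). Only 1 fell (5.88%, beside 9.73%), Elk3, and 4 were not called. Egr1 and Ier2 were uncalled with log2 fold changes of 0.96 and 0.60 (limma adjusted p = 0.072 and 0.076). Ccnd1 and Etv5 were uncalled at -0.0062 and -0.25 (limma adjusted p = 0.93 and 0.13). Elk3 and these 4 were named after their values were seen. The median log2 fold change was 0.51. The early gene Ier3 had 84.2 ± 4.31 FPKM with LCN2 and 54.8 ± 5.04 FPKM in controls (0.68, limma adjusted p = 0.0044). The EGFR ligand genes Areg and Hbegf had 40.6 ± 7.99 and 101 ± 11.6 FPKM with LCN2 and 20.6 ± 2.89 and 58.4 ± 13.2 FPKM in controls (1.00 and 0.86, adjusted p = 0.0087 and 0.012). Fosl1, an AP-1 subunit, rose by 1.16 (adjusted p = 0.013). Ier3 and Areg stayed called whichever library was dropped, Hbegf and Fosl1 in 4 of 6 omissions. The overlap of Fosl1 exons with the antisense Ccdc85b could not be resolved here.

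Of 24 tested genes of the kinase cascade itself, 5 were higher (20.8%, beside 11.8% of all tested genes) and 3 lower (12.5%, beside 9.73%), with a median of 0.03. Sos2, which loads RAS with GTP, had 12.2 ± 0.398 FPKM with LCN2 and 9.03 ± 0.838 FPKM in controls (0.46, limma adjusted p = 0.0062), and Ptpn11, a phosphatase that promotes RAS signalling, rose by 0.28. The adaptor Shc1 had 84.5 ± 10.2 FPKM with LCN2 and 119 ± 3.11 FPKM in controls (-0.44, adjusted p = 0.013), and Mknk2, a kinase that ERK and p38 activate, fell by 0.43. With libraries dropped in turn, Shc1 and Ptpn11 stayed called in 3 of 6 fits, Mknk2 in 5 and Sos2 in 6.

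Of all tested genes, 11.8% rose and 9.73% fell, and the shares of the next lists are to be read beside these. JNK and p38 genes gave 3 rises (20%) and 2 falls (13.3%) among 15 (median 0.01). Mapk14, which encodes p38 alpha, had 10.9 ± 0.205 FPKM with LCN2 and 15.2 ± 0.633 FPKM in controls (-0.38, limma adjusted p = 0.0056). Map3k1 fell by 0.39, while the p38 activator Map2k6 rose by 0.61 and Map3k5 by 0.30. Receptors gave 2 rises (25%) and 3 falls (37.5%) among 8 (median -0.01), with Axl (0.49) and Egfr (0.37) higher and Met (-0.24) and Fgfr1 (-0.28) lower. Genes for proteins that act on the decay of short-lived mRNAs, the stabilising Elavl1 among them, gave 1 rise (10%) and 2 falls (20%) among 10 (median 0.01). The deadenylase Cnot6 fell by 0.38 and Hnrnpd by 0.19, and Zfp36l1, which marks AU-rich mRNAs for decay, rose by 0.28. Mapk14 and Axl stayed called whichever library was dropped. Map3k1, Egfr and Cnot6 did so in 5 of 6 omissions, Map2k6 in 4, Zfp36l1 in 3, and Map3k5, Met, Fgfr1 and Hnrnpd in 2. Antisense exons also overlap Dusp28, Dusp3, Rasal2, Phlda1, Elk3, Ccnd1, Fgfr1, Hnrnpd, Zfp36l1 and Elavl1, and the markers Krt7, Krt8 and Pdgfra named below. Exons of other genes on the same strand overlap the markers Pdgfra and Itgam. Over all 102 tested genes of these lists, 34 rose (33.3%) and 13 fell (12.7%), beside 11.8% and 9.73% of all tested genes. With values as deposited, 22 rose and 17 fell. Dropping LCN2 replicate 1 left 8 rises and 1 fall, and dropping LCN2 replicate 3 left 12 rises and 4 falls. Dropping control replicate 1 left 16 rises and 5 falls, and dropping control replicate 3 left 13 rises and 4 falls. Dropping LCN2 replicate 2 gave 37 rises and 20 falls. Over all tested genes the counts moved in the same fits, from 1213 rises and 1003 falls as reported. They were 693 and 1680 with values as deposited, 179 and 89 without LCN2 replicate 1, and 298 and 180 without LCN2 replicate 3. They were 415 and 223 without control replicate 1, 302 and 161 without control replicate 3, and 1659 and 1501 without LCN2 replicate 2.

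**Figure D5:**
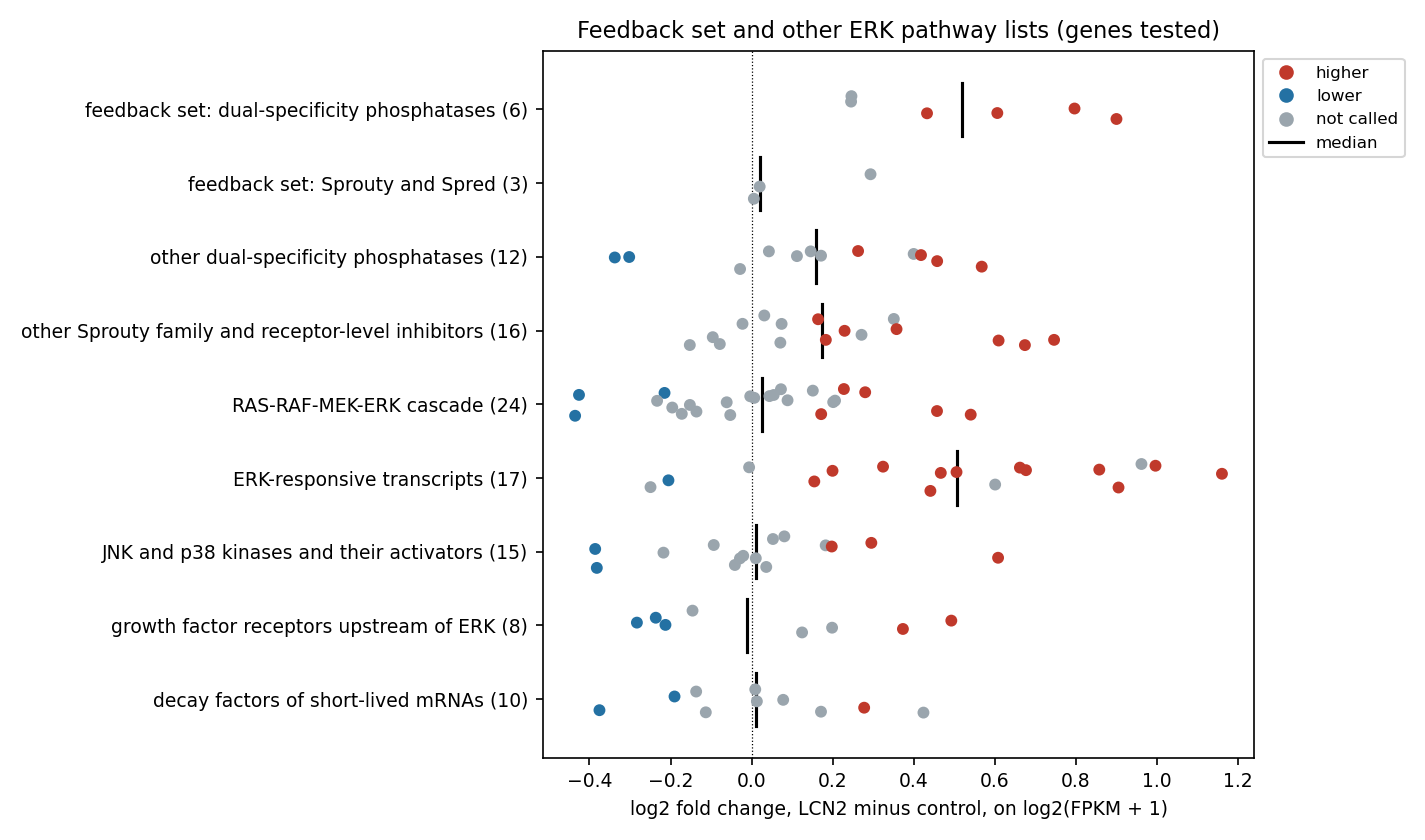
Log2 fold change (horizontal axis, LCN2 minus control on log2(FPKM + 1)) of every tested gene, by list, with the number tested in brackets. Points are coloured by call and black bars are medians, at 0.52 for the DUSPs of the feedback set, 0.51 for ERK-responsive transcripts and 0.02 for Sprouty and Spred.

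The labelled cell type was checked by markers. Of 7 epithelial markers in the table, 5 were at 1 FPKM or more in every library. Of the 6 tested, 2 were called higher with LCN2 (33.3%, beside 11.8% of all tested genes) and 1 lower (16.7%, beside 9.73%). Krt18 (log2 fold change 0.17, limma adjusted p = 0.031) and Cldn4 (1.23, adjusted p = 0.0056) were higher and Krt8 (-0.27, adjusted p = 0.0096) was lower, while Epcam, Krt7 and Esr1 were not called. The cadherin Cdh1 was at 0.156 ± 0.0464 and 0.140 ± 0.0384 FPKM, close to 0. Immune markers summed to between 0.748 and 1.09 FPKM with LCN2 and between 1.40 and 1.76 FPKM in controls over 6 genes, with Cpa3, Mcpt4 and Fcer1a listed at 0. Markers of endothelial cells and fibroblasts summed to between 3.99 and 4.20 FPKM with LCN2 and between 3.93 and 5.13 FPKM in controls over 5 genes, nearly all of it from Pdgfra, which is also among the receptors above (3.61 ± 0.220 FPKM with LCN2 and 4.30 ± 0.543 FPKM in controls).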

How the data were processed

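RNA of 3 LCN2 and 3 control libraries was profiled after an mRNA library kit, per the labels' protocols. The authors deposited 1 table, taken here as FPKM. Although the table is named for raw counts, 0% of its non-zero values were whole (tolerance 1e-9), and neither header nor label states the unit. The genome build was GRCm38, per the submitters' processing notes. For the aligner and quantifier: not given in the sources used here. Depth is unknown: the commonest ratio of low values between libraries held in 7 to 10 of 1577 to 1622 genes (tolerance 0.002 in log2). Column sums lay between 391569 and 410808.

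Values were scaled by TMM (trimmed mean of M-values, unweighted, trims 0.3 and 0.05), filtered at a mean of 1 FPKM and tested as log2(FPKM + 1) with limma 3.58.1 in R 4.3.3 (variance trend, no replicate term), two-sided. The test was first run on simulated data in which the noise of each gene was independent. Those data do not bear on variation that genes share among libraries. Means ± SD are of deposited FPKM. Scaling, pseudocount, filter, variance model, replicate term and libraries were varied. Members, lists and settings were chosen with earlier results of these data known. Named besides members were up to 4 called genes a list by smallest adjusted p, and the 3 most like Dusp6 and Spry4. Of the 135 other pathway genes, 12 were not analysed here. Positions are from GENCODE M21 and promoters from RefSeq.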

Additional observations from a re-analysis of the deposited data

How the results depend on the processing

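The number of members called higher was 4 under 8 of the 10 other settings, with 1 when no filter on low values was used, and 0 with the replicate number as a block. With 1 library left out it lay between 0 and 6, and the number called lower was 0 throughout. Rises among the other pathway genes numbered 22 with values as deposited, 9 with the replicate block and between 8 and 37 with 1 library left out. Falls numbered 1 with the block and between 1 and 20 with 1 library left out. Over all genes, 693 rose and 1680 fell with values as deposited, 884 rose and 601 fell with no filter, and 181 rose and 81 fell with the block. With 1 library left out, between 179 and 1659 of all genes rose and between 89 and 1501 fell, against 1213 and 1003 as reported. The labels do not say whether the replicate numbers pair the libraries. Deviations of same-numbered libraries from their group means correlated at -0.22, -0.26 and 0.0086 across genes. With 3 libraries a group, 1 unusual library can set these values, so they cannot decide whether libraries were paired. Spry4 turned to -0.039 with values as deposited and -0.0073 with equal column sums, and reached from -0.056 to 0.12 with 1 library left out. Spred1 turned to -0.057 with values as deposited, -0.023 with equal column sums and -0.012 after quantile normalization, and reached from -0.058 to 0.056 with 1 library left out. The cause of these moves was not tested. TMM factors taken from all genes, an alternative chosen after seeing the data, changed no call of a member. Since depth is unknown, no floor could be set for Spry2.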

Other observations

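The arrangement of libraries shared by the 9 tested members (LCN2 replicate 2 lowest of its group, control replicate 1 lowest and control replicate 2 highest of theirs) was also found in 10 of 17 ERK-responsive transcripts (58.8%) and in 27 of 102 tested genes of the pathway lists (26.5%), beside 12.6% of all tested genes. These genes were set side by side after the arrangement was seen in the members, and the libraries are the same, so the shares are a description only.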
